A study of Mus musculus with 2 samples.

Results

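The nuclear genes for the 5 complexes of oxidative phosphorylation were followed across the cell classes of the mouse hippocampus. Members were chosen by symbol (the Nduf a, b, c, s and v genes, Sdha to Sdhd, the Uqcr genes, Cyc1, the Cox4 to Cox8 subunits and the Atp5 genes) together with a total of at least 200 UMIs over all barcodes of both libraries. UMIs are the molecular tags by which copies of 1 captured RNA are counted once. Of 81 genes whose symbol fits, 78 reached this total, among 16647 genes that reach it and 32285 genes listed. They were 35 genes of complex I, 4 of complex II, 9 of complex III, 13 of complex IV and 17 of complex V. Just inside the minimum lay Cox6a2 with 209 UMIs (male) and 247 (female), and Cox6b2 with 265 and 354. Just outside lay Cox7a1 with 71 and 116 UMIs and Cox8b with 72 and 34, and Cox8c had 0 and 2. Because the UMI total chose the members, their totals are a description only. The pattern of symbols leaves out some subunits, among them Cox4i1, Cox4i2, Ndufab1 and Cox7a2l, which were kept in a separate list of 7 subunits and partners.

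Single nuclei were profiled from the hippocampus of 3-month-old mice of the genotype Stra8L/-; Nestin-Cre, in 1 male and 1 female library made with droplet 3′ chemistry. Stra8 is known as a gene that commits germ cells to meiosis, and both libraries carry its conditional deletion; a library of another genotype was not analysed here. Under the Nestin promoter, Cre acts in neural progenitors and is inherited by their neurons, astrocytes and oligodendrocytes, whereas microglia have another origin. Over all barcodes Stra8 had 3 UMIs (male) and 6 (female), and with no control library these counts do not check the deletion. How many animals each library pools was stated in none of the sources used here. The design therefore implies 2 comparisons, between cell classes within a library and between the male and the female library, and with 1 library per group neither has a test. Intervals are at 95% and cover only counting error, and the sex of the animals cannot be told apart from differences between animals or between library preparations.

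Oxidative phosphorylation makes most of a neuron's ATP. Complex I (NADH dehydrogenase) and complex II (succinate dehydrogenase) pass electrons to ubiquinone, complex III passes them on to cytochrome c, complex IV (cytochrome c oxidase) hands them to oxygen, and complex V (ATP synthase) uses the resulting proton gradient. All but complex II combine subunits made from nuclear genes with subunits encoded in the mitochondrial genome, so that nuclear RNA shows only the transcription and nuclear stock of the nuclear part.

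Depth came to 103262825 UMIs (male, 16174 barcodes) and 108286856 UMIs (female, 20150 barcodes), and 13975 and 17052 barcodes were kept as nuclei, at a median of 4356 and 2680 UMIs. The libraries share 101 barcode sequences. Most kept nuclei fell into 8 main classes, the largest of the named classes with 200 or more nuclei per library. They were named from marker genes and called granule, CA1, CA3, subicular or entorhinal and GABAergic neurons, oligodendrocytes, astrocytes, and microglia or macrophages. Each of the 17 clusters of these classes had 4 to 8 of 8 markers at least 2-fold over the other nuclei. Oligodendrocyte precursors were not among the 8 classes, although their cluster counted 452 (male) and 586 (female) with called doublets included. Statements on glial classes below therefore leave these precursors out. The members were left out of the clustering. Oligodendrocytes formed a cluster with 95.9% of the male but 5.21% of the female nuclei of the class, and another with 4.06% and 94.8%, so this class is split by library. In the largest GABAergic cluster (56.4% of male and 78.4% of female nuclei of the class) Gad1, the GABA-synthesising enzyme, had a UMI in 69.3% of the male but 41.7% of the female nuclei. Classes differ in depth, with a mean of 1671 UMIs per nucleus in male microglia and 13805 in female CA3 neurons, and mitochondrial UMIs had a median share of 0.200% in male CA3 neurons and 2.15% in female microglia.

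Over all barcodes the 78 genes held 639307 UMIs in the male library, 0.619% of its UMIs, and 658744 in the female library, 0.608%. The 4 genes with the most UMIs were Cox8a (56632 and 59426), Ndufa4 (35224 and 33126), Cox6c (30717 and 30908) and Cox7c (22840 and 27295), all small subunits of complex IV. They made up 22.7% and 22.9% of the list's UMIs. These are totals of 3′ tags, not levels per length.

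Levels are given as a share of all UMIs, on the CPM scale (UMIs of the genes over all UMIs of the class). Among the 8 main classes, the summed list was higher in each glial than in each neuronal class of both libraries. Microglia or macrophages had 15118 CPM (male, 14909 to 15329) and 14139 CPM (female, 13926 to 14353). Oligodendrocytes had 14505 and 13007 CPM and astrocytes 13474 and 10982 CPM. Granule neurons, the principal cells of the dentate gyrus, were highest among neurons at 6776 and 5332 CPM. The other neurons had 4219 and 3108 CPM (subicular or entorhinal), 4137 and 3729 CPM (GABAergic), and 3897 and 3286 CPM (CA1). CA3 pyramidal neurons were lowest at 3268 CPM (3235 to 3301) and 2763 CPM (2733 to 2794). Microglia thus stood 4.63-fold (male) and 5.12-fold (female) over CA3 neurons.

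**Figure D1:**
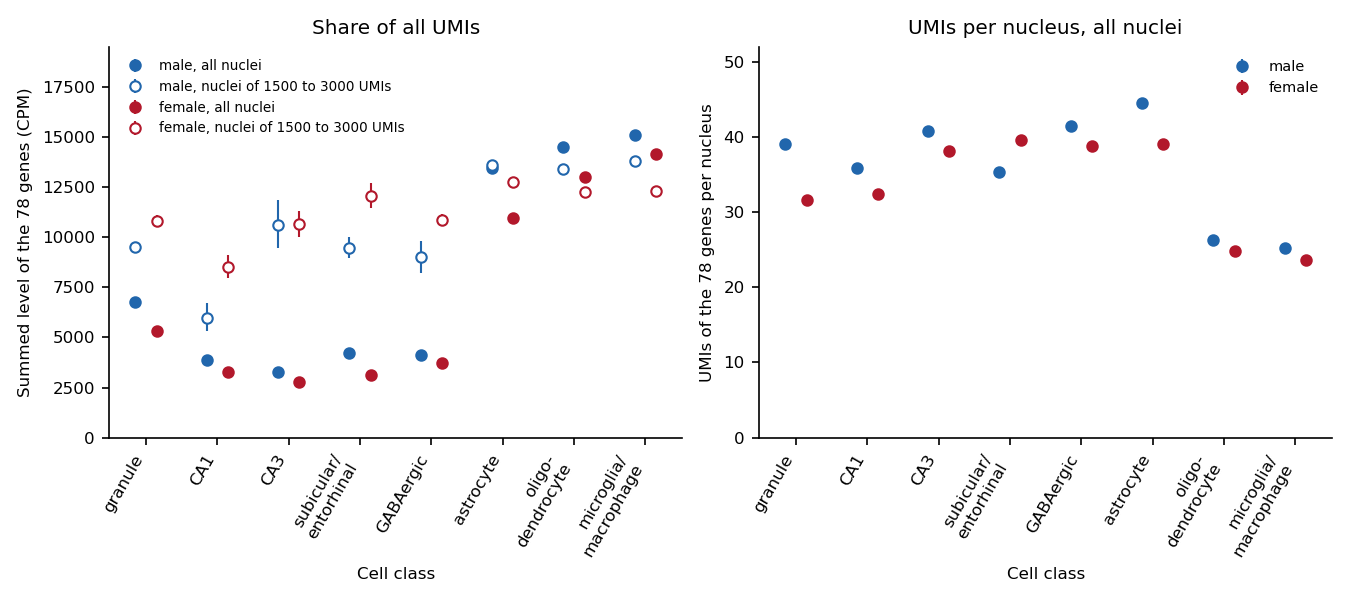
Left, summed level of the 78 genes in CPM by cell class and library, with filled points for all nuclei and open points for nuclei of 1500 to 3000 UMIs; right, UMIs of the 78 genes per nucleus in all nuclei. Bars are 95% Poisson intervals; the filled points spread from 2763 to 15118 CPM, whereas the open points lie closer together and the UMIs per nucleus stay between 23.7 and 44.6.

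Counted per nucleus, the order of classes was another one. Astrocytes held 44.6 UMIs of the list per nucleus (male) and 39.1 (female), GABAergic neurons 41.4 and 38.8, CA3 neurons 40.9 and 38.1, granule neurons 39.1 and 31.6, CA1 neurons 35.9 and 32.5, and subicular or entorhinal neurons 35.3 and 39.6. Oligodendrocytes with 26.3 and 24.8 and microglia with 25.3 and 23.7 were lowest. CA3 nuclei and oligodendrocyte nuclei therefore differed by far less in UMIs of the list per nucleus than in total UMIs, which averaged 12501 and 1816 per nucleus in the male library. A count per nucleus mixes the RNA content of a nucleus with how deeply it was sampled.

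Read gene by gene, the glial classes led for most members. At least 2-fold over the median of the other main classes, in both libraries and with at least 100 UMIs in the class, stood 60 of 75 members in oligodendrocytes (18.6% of all genes tested did so), 56 of 77 in astrocytes (background 20%) and 61 of 73 in microglia (background 33.7%). No member did so in granule neurons (0 of 76, background 4.11%), CA1 neurons (0 of 76, background 3.11%), CA3 neurons (0 of 76, background 3.33%), GABAergic neurons (0 of 76, background 5.34%) or subicular or entorhinal neurons (0 of 75, background 4.58%). The members' median log2 fold was 1.74 in microglia, 1.68 in oligodendrocytes and 1.42 in astrocytes, beside 0.56, 0.19 and 0.18 for all genes tested. In CA3 neurons it was -0.995, beside -0.162 for all genes. Of the 78 members, 69 (male) and 62 (female) had their lowest CPM among the 8 classes in CA3 neurons, and 53 and 64 had their highest in microglia. The shares of all genes that did so were not counted, and the medians of all genes above lean the same way. Per nucleus, 66 and 62 members had more UMIs in the mean of the neuronal classes than in that of the glial classes. Neuronal nuclei also held more UMIs in total, and the share of all genes with this direction was not counted.

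The members with the largest fold over the median of the other classes differed by class, taking the lower fold of the libraries. In oligodendrocytes they were Cox8a (4.38-fold) and Ndufb11 (4.30-fold), in astrocytes Cox8a (4.73-fold) and Cox6c (4.18-fold), and in microglia Ndufa4 (4.58-fold) and Uqcrq (4.398-fold), all small accessory subunits. In granule neurons Cox8a and Cox5b, a nuclear subunit of complex IV, led at 1.71-fold each. In the other neurons the leading folds lay near 1, with Ndufa10 (1.12-fold) and Cox7b2 (0.921-fold) in CA3, Cox7b2 (1.11-fold) and Ndufs4 (1.04-fold) in GABAergic, Cox7b2 (1.04-fold) and Sdhb (0.892-fold) in CA1, and Uqcrc1 (0.951-fold) and Sdhb (0.936-fold) in subicular or entorhinal neurons.

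This difference between classes depended on the depth of the nuclei compared. When only nuclei of 1500 to 3000 UMIs were taken, a range that all classes share, microglia had 13784 and 12291 CPM, oligodendrocytes 13404 and 12239, and astrocytes 13633 and 12767. Granule neurons then had 9525 CPM (9338 to 9715) in 411 male nuclei and 10828 CPM (10569 to 11092) in 263 female nuclei. CA3 neurons had 10617 and 10647 CPM, from 12 and 41 nuclei, so the ratio of microglia to CA3 neurons was 1.30 (male) and 1.15 (female). Subicular or entorhinal neurons had 9470 and 12069 CPM (54 and 52 nuclei), GABAergic neurons 8991 and 10863 (23 and 185 nuclei), and CA1 neurons 5994 and 8516 (20 and 41 nuclei). Thinning each nucleus to 1000 UMIs, which keeps deep nuclei in, left this ratio at 3.94 (male) and 3.95 (female). Shallow neuronal nuclei thus differed from deep ones in the share of their UMIs that the list held. Thinning draws UMIs at random and so keeps the expected share of each nucleus. It changes only how nuclei are weighted and which are kept, and is no test of depth.

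Granule neurons had enough nuclei in this range for a comparison of single members, which was chosen after the data were seen. Over all nuclei the list stood 2.14-fold (male) and 2.44-fold (female) higher in oligodendrocytes than in granule neurons, 1.99-fold and 2.06-fold higher in astrocytes, and 2.23-fold and 2.65-fold higher in microglia. At 1500 to 3000 UMIs these folds were 1.41 and 1.13, 1.43 and 1.18, and 1.45 and 1.14. In all nuclei 45 of 78 members were at least 2-fold over granule neurons in both libraries in oligodendrocytes (background 11% of all genes tested), 11 of 77 in astrocytes (background 12.2%) and 49 of 76 in microglia (background 14.6%). At 1500 to 3000 UMIs 0 of 75 (background 9.83%), 0 of 74 (background 11.4%) and 0 of 73 members (background 15.2%) were. The astrocyte count is near its background in all nuclei, and at like depth no tested member passed the fold in any of the 3 glial classes. Members with few UMIs at this depth were not tested, among them Cox6b2, whose levels are given below.

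At this depth the complexes kept like proportions. Complex IV held 3381 and 4027 CPM in granule neurons, 4854 and 4588 in oligodendrocytes, 5034 and 4960 in astrocytes, and 4915 and 4511 in microglia. Complex I held 2977 and 3203, 4005 and 3636, 4006 and 3713, and 4174 and 3567 CPM in the same order. Complex V held 2261 and 2466 CPM in granule neurons and 3194 and 2847 in microglia, and complex III 758 and 928 in granule neurons and 1264 and 1114 in microglia. Complex II had the fewest UMIs, with 149 and 204 CPM in granule neurons and 237 and 252 in microglia. In each complex the male granule neurons were lowest of these 8 values.

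**Figure D2:**
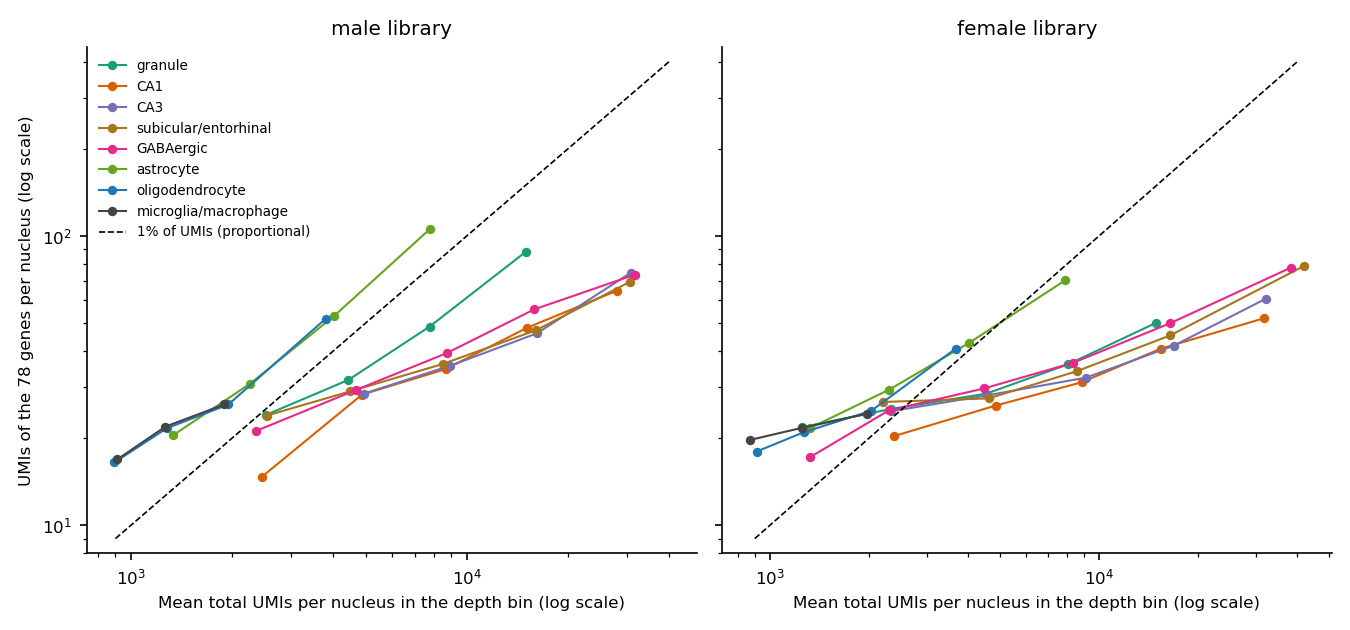
UMIs of the 78 genes per nucleus against mean total UMIs per nucleus in bins of depth, by cell class, for the male (left) and female (right) library, both axes on a log scale; the dashed line marks a constant share of 1%. From 3000 UMIs on, neuronal lines are flatter than the dashed line: in male CA1 neurons the list rose from 28.3 to 48.1 UMIs per nucleus between the bins of 3000 to 6000 and 12000 to 24000 UMIs.

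In CA1, CA3 and granule neurons, the list rose less with depth than total UMIs did from 3000 UMIs on. In male CA1 neurons the list had 28.3 UMIs per nucleus at 3000 to 6000 total UMIs and 48.1 at 12000 to 24000, a ratio of 1.70 while total UMIs rose 3.095-fold. In the female library it had 25.9 and 40.8, a ratio of 1.57 beside 3.18. In CA3 neurons the ratios were 1.62 and 1.49, beside 3.28 and 3.70 for total UMIs. Granule neurons differed between libraries, with 2.77 (male) and 1.75 (female) beside 3.37 and 3.27. From 1500 UMIs on, male astrocytes and oligodendrocytes did not show such a fall in share. Male astrocytes had 13633 CPM at 1500 to 3000 UMIs, 13136 at 3000 to 6000 and 13602 at 6000 to 12000. Male oligodendrocytes had 13404 and 13617 in the first pair of these bins. Female astrocytes had 12767, 10594 and 8903 CPM in all of these bins. Under 1500 UMIs the share in male glia was higher. Male oligodendrocytes had 18472 CPM at 500 to 1000 UMIs and 16930 at 1000 to 1500. Male microglia had 18543 and 17306 there, beside 13784 at 1500 to 3000. Male astrocytes had 15330 at 1000 to 1500. Cytosolic ribosomal protein genes, another set of mostly compact genes, rose 1.53-fold and 1.30-fold in CA1 neurons, and the 13 mitochondrially encoded subunits 1.97-fold and 1.47-fold.

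In CA1 neurons the slope with depth differed among members by gene span, the distance from the start to the end of the annotated gene, which ranged from 0.953 to 105 kb with a median of 7.25 kb. This comparison was chosen after the data were seen. There the 26 members under 5 kb rose 1.55-fold (male) and 1.31-fold (female) between the same bins, the 29 of 5 to 10 kb 1.56-fold and 1.52-fold, the 12 of 10 to 20 kb 1.73-fold and 1.65-fold, and the 11 of 20 kb and over 2.76-fold and 2.58-fold. In male granule neurons the span groups differed little, at 2.76-fold, 2.73-fold, 2.70-fold and 3.13-fold in the same order, whereas in female ones they had 1.55-fold, 1.65-fold, 1.81-fold and 2.81-fold. Ndufs4, an accessory subunit of complex I whose loss in humans and mice causes Leigh syndrome, spans 100 kb (mm10, chr13:114287795-114388258, minus strand). It had 0.374 UMIs per nucleus at 3000 to 6000 UMIs and 1.29 at 12000 to 24000 in male CA1 neurons, and 0.394 and 1.22 in female ones. Its ratios of 3.46 and 3.11 are close to those of total UMIs. Sdha, the flavoprotein of succinate dehydrogenase (28.03 kb), rose 3.11-fold and 2.95-fold. Cox8a (2.46 kb) rose 1.63-fold and 1.33-fold, and Cox7c (2.09 kb) 1.32-fold and 1.21-fold. Ndufa12, an accessory subunit of complex I of 22.7 kb, did not follow the other long genes and rose 1.67-fold and 1.69-fold. Over 75 members with a value the rank correlation of span with this ratio was 0.56 and 0.64, as a description, since all points share the same libraries.

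Span also ordered the members by class. The ratio of the mean CPM of the 3 glial classes to that of the 5 neuronal classes was 3 or more for 52 members in both libraries and under 1.5 for 4 in both. Those 4 were Ndufs4 with 1.20 and 1.13, Ndufs1, a core iron-sulphur subunit of complex I (33.2 kb), with 1.22 and 1.37, Ndufa10, an accessory subunit of complex I (34.9 kb), with 1.22 and 1.06, and Cox7b2, a paralog of the complex IV subunit gene Cox7b (105 kb), with 0.71 and 1.11. Sdha had 1.77 and 1.75, and Ndufs3, a core subunit of 10.2 kb named here after its values were seen, had 1.63 and 1.65. At the other end Cox8a had 4.17 and 4.76 and Cox6b2 (1.30 kb) 8.36 and 7.48. The shares of all genes at 3 or more and under 1.5 were not counted, and these means pool nuclei of unlike depth. The rank correlation of span with the ratio over the 78 members was -0.70 (male) and -0.67 (female), as a description over points that share the same libraries. Span and level over all kept nuclei had a rank correlation of -0.03. Among 10237 other protein-coding genes the correlation of span with the ratio was -0.36 and -0.31.

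**Figure D3:**
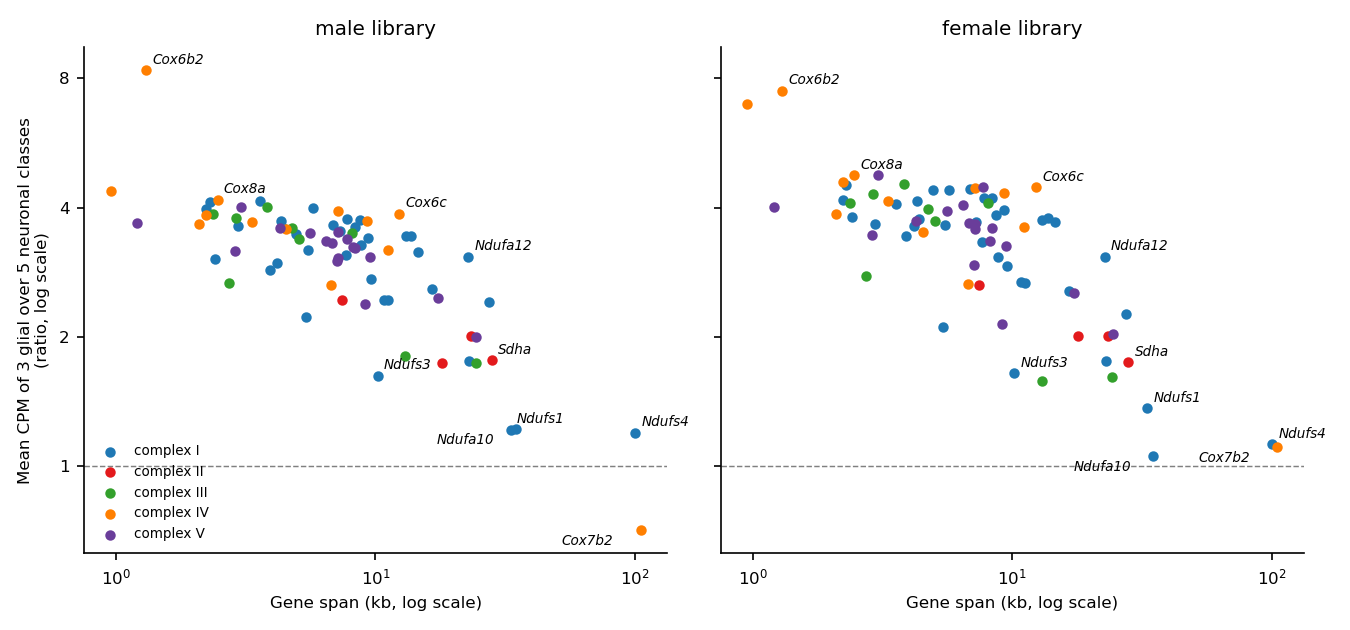
Ratio of mean CPM in the 3 glial classes to mean CPM in the 5 neuronal classes against gene span in kb, for each of the 78 genes, in the male (left) and female (right) library, coloured by complex, both axes on a log scale. Genes under 5 kb have a median of 3.70 and 4.09, whereas Ndufs4, Ndufs1, Ndufa10 and Cox7b2 lie between 0.71 and 1.37, near the dashed line of equal levels.

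At like span, the members still had higher median ratios than other genes. With 5 CPM added to both levels, the median glial to neuronal ratio of members under 5 kb was 3.41 and 3.55, beside 2.18 and 2.15 for 705 other protein-coding genes of that span. For members of 20 kb and over it was 1.70 and 1.69, beside 1.08 and 1.13 for 6799 other genes. The members of 5 to 10 kb had 3.12 and 3.36 beside 1.53 and 1.49, and those of 10 to 20 kb had 2.35 and 2.44 beside 1.31 and 1.34. In the male library single members under 5 kb ran from 1.81 to 4.13, and the other genes from 0.093 to 8.85. The other genes were not matched for level, and adding 5 CPM draws the ratios of low genes towards 1.

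Along with span, the make-up of the list changed from class to class. The 11 genes of 20 kb and over held 15.99% of the list's UMIs in male and 17.4% in female CA3 neurons, 14.8% and 15.4% in GABAergic neurons and 13.6% and 14.4% in CA1 neurons. They held 9.77% and 11.3% in granule neurons, 7.10% and 7.78% in astrocytes, 6.76% and 6.66% in microglia and 6.61% and 6.40% in oligodendrocytes. In CA3 neurons 5 members held at least 1.5-fold their mean share in the other classes in both libraries: Ndufs4 (3.098% and 3.31% of the list, beside 1.63% and 1.87%), Ndufa10 (2.08% and 2.09%, beside 0.925% and 0.985%), Ndufs1 (2.08% and 2.16%, beside 1.22% and 1.36%), Uqcrc1, a core protein of complex III (0.682% and 0.744%, beside 0.446% and 0.453%), and Cox7b2. In GABAergic neurons these were Ndufs4 (2.62% and 2.92%) and Cox7b2. On the same measure 11 members were lower in oligodendrocytes, 7 in astrocytes and 7 in microglia, and 1, Cox6b2, was higher in astrocytes. This measure was also chosen after the data were seen, and the groups compared share the same list total.

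In complex I, Ndufs4 had like CPM in neurons and glia. It had 111 and 106 CPM in granule neurons, 83.6 and 78.4 in CA1 neurons, 101 and 91.5 in CA3 neurons, 104 and 98.7 in subicular or entorhinal neurons and 108 and 109 in GABAergic neurons. In glia it had 104 and 86.5 CPM in oligodendrocytes, 125 and 109 in astrocytes and 137 and 131 in microglia. Its values in neurons and glia overlapped. Per nucleus it had 1.27 and 1.26 UMIs in CA3 neurons and 0.189 and 0.165 in oligodendrocytes. Ndufb9, an accessory subunit of 5.73 kb, had 58.5 and 51.6 CPM in CA3 neurons and 358 and 367 in microglia, with granule neurons between at 151 and 120. Among the core subunits the ratio of glia to neurons ran from 1.22 and 1.37 for Ndufs1 to 3.11 and 3.32 for Ndufs7 and 2.87 and 3.44 for Ndufs8, so that subunits of the same enzyme differed in their pattern.

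Complex II is the only complex here with no mitochondrially encoded subunit, and its 4 genes had lower ratios of glia to neurons than Cox8a and most other members. Sdha had 62.9 and 66.5 CPM in CA3 neurons, 79.2 and 80.5 in granule neurons, 124 and 123 in oligodendrocytes, 128 and 131 in astrocytes and 126 and 129 in microglia. Sdhb, the iron-sulphur subunit, had 21.3 and 21.1 CPM in CA3 neurons and 46.8 and 58.4 in microglia. The membrane anchors Sdhc and Sdhd had 21.5 and 20.4 and 7.17 and 7.19 CPM in CA3 neurons, and 59.6 and 57.6 and 22.6 and 21.7 in microglia. The ratio of glia to neurons of the 4 genes ran from 1.74 to 2.65, and 3 of them span 17.99 to 28.03 kb.

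In complex III, the core proteins differed from the small subunits. Uqcrc2 (24.3 kb) had 39.7 and 37.0 CPM in CA3 neurons and 103 and 84.3 in microglia, and Uqcrc1 22.3 and 20.5 and 45.3 and 40.9. Uqcrh, the hinge protein that helps cytochrome c1 to meet cytochrome c, had 52.6 and 48.4 CPM in CA3 neurons and 273 and 302 in microglia. Uqcrq had 28.4 and 22.3 in CA3 neurons and 193 and 179 in microglia. Cyc1, cytochrome c1 itself, had 19.6 and 14.0 and 72.4 and 53.4.

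In complex IV, Cox8a went from 214 and 178 CPM in CA3 neurons to 581 and 451 in granule neurons, 1317 and 1253 in oligodendrocytes, 1319 and 1338 in microglia and 1552 and 1257 in astrocytes. At 1500 to 3000 UMIs it had 794 and 1057 CPM in granule neurons and 1366 and 1384 in astrocytes. Ndufa4, named for complex I but known as a subunit of complex IV, had 150 and 107 CPM in CA3 neurons, 384 and 257 in granule neurons and 993 and 815 in microglia. Cox6c had 115 and 104 CPM in CA3 neurons, 342 and 242 in granule neurons and 765 and 605 in astrocytes. Cox4i1, outside the symbol pattern, behaved like them with 153 and 136 CPM in CA3 neurons and 906 and 958 in microglia.

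Complex IV has paralogous subunits with isoforms known from heart and muscle, lung or testis, and in each pair the widely used form held nearly all UMIs, as counts of 3′ tags not divided by length. Cox6a1 had 68.5 to 367 CPM over the classes of the male library, whereas its muscle form Cox6a2 had 0.518 to 9.81. Cox7a2 had 69.1 to 376 CPM in the male library and the muscle form Cox7a1 at most 2.38 there, with 0 UMIs in male microglia, which allows up to 2.26 CPM. Cox4i1 had 136 CPM or more in all classes, beside at most 2.50 CPM for the lung form Cox4i2, and Ndufa4l2, a paralog of Ndufa4, had at most 0.835 CPM. The Cox6b pair differed by class: Cox6b2, the testis form of Cox6b1, had 16.1 and 13.0 CPM in astrocytes, 8.01 and 7.72 in oligodendrocytes, 8.30 and 5.01 in microglia and between 0.574 and 1.64 in the neuronal classes. In astrocytes Cox6b1 had 275 and 252 CPM. At like depth Cox6b2 had 19.1 and 14.5 CPM in astrocytes, beside 1.92 and 1.63 in granule neurons and 7.32 and 8.13 in oligodendrocytes. These values rest on few UMIs, with the fewest in granule neurons. Cox7b2 had the opposite distribution among glia and neurons in oligodendrocytes and microglia: it had 203 and 80 UMIs in granule neurons (8.73 and 7.23 CPM), 39 and 87 in astrocytes (11.6 and 16.4 CPM), but 4 and 8 in oligodendrocytes (0.942 and 1.19 CPM) and 0 and 2 in microglia. At 1500 to 3000 UMIs Cox7b2 had 5.77 and 9.79 CPM in granule neurons and 0.770 and 1.20 in oligodendrocytes, each from very few UMIs.

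In complex V, the catalytic F1 subunit gene Atp5b had 81.0 and 60.1 CPM in CA3 neurons, 168 and 111 in granule neurons, 312 and 236 in oligodendrocytes and 329 and 211 in astrocytes. Its partner Atp5a1 (F1 alpha) had 86.1 and 78.6, 135 and 99.8, 235 and 183, and 230 and 158 CPM in the same order. At like depth Atp5a1 had 172 and 176 CPM in granule neurons and 218 and 173 in oligodendrocytes, which overlap between libraries. The ring of c subunits comes from 3 genes that encode the same mature protein. In granule neurons Atp5g1 had 122 and 78.04 CPM, Atp5g3 89.8 and 62.4 and Atp5g2 67.4 and 51.8; in microglia they had 265 and 210, 188 and 169, and 146 and 141. As UMI counts the order Atp5g1, Atp5g3, Atp5g2 was the same in all 8 classes of both libraries. Atp5l, a membrane subunit with 298 and 294 CPM in oligodendrocytes and 66.5 and 66.3 in CA3 neurons, has 12 near-identical annotated copies, so its count is uncertain.

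Near-identical annotated copies of the 3′ end were found for 17 of the 78 members, and 1 of them had such a copy among the genes listed (Atp5l, with Gm5426). Genes on the opposite strand overlap 25 members and Ndufa13 overlaps Yjefn3 on the same strand. The sources used here do not give whether counting used strand, so reads of these partners cannot be told apart. Of the members 3 lie on the X chromosome and 0 on the Y chromosome.

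Other RNA moved with the list across classes. The 13 mitochondrially encoded subunits had 2167 and 2581 CPM in CA3 neurons, 6083 and 6865 in granule neurons, 19112 and 18832 in astrocytes and 16936 and 21990 in microglia. Cytosolic ribosomal protein genes had 4730 and 4814 CPM in CA3 neurons and 31206 and 35484 in microglia. The 47 assembly factors of the complexes moved less, with 1240 and 1134 CPM in CA3 neurons and 1658 and 1718 in microglia. Enzymes of the citrate cycle and pyruvate dehydrogenase (17 genes) had 740 and 647 CPM in CA3 neurons and 1308 and 1196 in microglia, and 12 regulators of mitochondrial gene expression had 407 and 381 and 497 and 513. Barcodes left out for over 5% mitochondrial UMIs held more of the list than any main class (25743 and 25904 CPM), as did 2 clusters without a cell-class name. Among nuclei of 1500 to 3000 UMIs the list was higher in those with over 1% mitochondrial UMIs in every class and library with both kinds: 11631 against 9084 CPM in male granule neurons, 11827 against 7633 in female granule neurons, 14177 against 11005 in male oligodendrocytes and 12408 against 8503 in female ones. The part of RNA from outside the nucleus in the class differences was not tested.

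Promoters were read for the 65 members found in the RefSeq table (GRCm38.p6, the assembly of mm10), as 250 bases before to 50 after the start, because so many members followed the same order of classes. NRF1 and GABP, an ETS factor, are known regulators of respiratory chain genes. The NRF1 motif GCGCANGCG, searched on both strands, was in 19 of the 65 (29.2%), beside 6.25% of all 32851 promoters. The ETS motif CCGGAAG was in 16 (24.6%, beside 8.86%), the YY1 motif AAGATGGCG in 6 (9.23%, beside 1.40%), the ERR motif TCAAGGTCA in 2 (3.08%, beside 0.423%), the SP1 motif GGGGCGGGG in 11 (16.9%, beside 11.4%) and the TATA motif TATAAA in 7 (10.8%, beside 13.6%). Matches of different motifs may overlap, and a match such as that of Ndufa11 was found on both strands. NRF1, ETS or YY1 motifs were in 34 promoters (52.3%), beside 14.8% of all. Stretches with an NRF1 motif from 5 promoters, outside annotated exons, are shown 5′ to 3′ on the gene's strand with the motif in capitals and 10 bases on each side.
Cox6a1 (chr5:115349057-115349085, minus strand): cggataaagtGCGCAGGCGctggagttcc
Atp5h (chr11:115420042-115420070, minus strand): gaccccgacgGCGCAGGCGccgcgcccgc
Ndufs5 (chr4:123718266-123718294, minus strand): gctgcttgctGCGCAGGCGcagacccgct
Ndufb4 (chr16:37654541-37654569, minus strand): gagaagcagtGCGCACGCGcagaatacgc
Ndufa11 (chr17:56717692-56717720, plus strand): cctgcactgcGCGCATGCGcgcacgcctt

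Stretches with the ETS motif show how short the shared letters are, here in capitals and on the opposite strand (CTTCCGG) for all but Uqcr11.
Uqcr11 (chr10:80406871-80406897, minus strand): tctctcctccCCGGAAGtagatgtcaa
Atp5l (chr9:44920938-44920964, minus strand): cttcaccgatCTTCCGGaccaacatga
Atp5e (chr2:174464187-174464213, minus strand): acggccacagCTTCCGGtagccgctcg
Sdhd (chr9:50603879-50603905, minus strand): cgtctcctgcCTTCCGGttcacgcttc

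The presence of an NRF1 motif did not go with another distribution over classes. The median glial to neuronal ratio was 3.34 and 3.72 for the 19 members with it and 3.30 and 3.64 for the 46 without. With the ETS motif it was 3.498 and 3.86 for 16 members, and without it 3.19 and 3.64 for 49. A match describes letters in this window and not a bound site.

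Between the libraries, the list was higher in the male one in all 8 classes when all nuclei were summed. The log2 ratio of male to female CPM was 0.44 (0.42 to 0.46) in subicular or entorhinal neurons, 0.35 (0.33 to 0.36) in granule neurons, 0.30 (0.28 to 0.31) in astrocytes, 0.25 (0.23 to 0.26) in CA1 neurons, 0.24 (0.22 to 0.26) in CA3 neurons, 0.16 (0.14 to 0.17) in all oligodendrocytes, 0.15 (0.13 to 0.17) in GABAergic neurons and 0.10 (0.07 to 0.13) in microglia. These sums pool nuclei of unlike depth and cluster. In subicular or entorhinal neurons, with a mean of 8373 UMIs per male and 12732 per female nucleus, the ratio was 0.12, 0.09 and 0.09 in the bins from 3000 to 24000 UMIs, and per nucleus the list was higher in the female library (39.6 against 35.3 UMIs). In oligodendrocytes, whose male and female nuclei lie mostly in different clusters, it was -0.21 and 0.00 within the clusters. Of the members with at least 100 UMIs in a class, 74 of 76 were higher in the male library in granule neurons, 73 of 76 in CA1, 72 of 76 in CA3, 74 of 75 in subicular or entorhinal and 63 of 76 in GABAergic neurons, 69 of 75 in oligodendrocytes, 73 of 77 in astrocytes and 55 of 73 in microglia. Between 55.5% and 71.0% of all genes tested were higher in the male library. The members' median log2 ratio, with 5 CPM added to both levels, ran from 0.10 in microglia to 0.42 in subicular or entorhinal neurons, beside medians of all genes between 0.05 and 0.12. The differences were small: 18 of 604 pairs of member and class were at least 1.5-fold higher in the male library, beside 4.74% of all pairs of gene and class, and 0 of 604 in the female library, beside 1.93%. Both counts lie under the background, which was taken over all classes together.

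**Figure D4:**
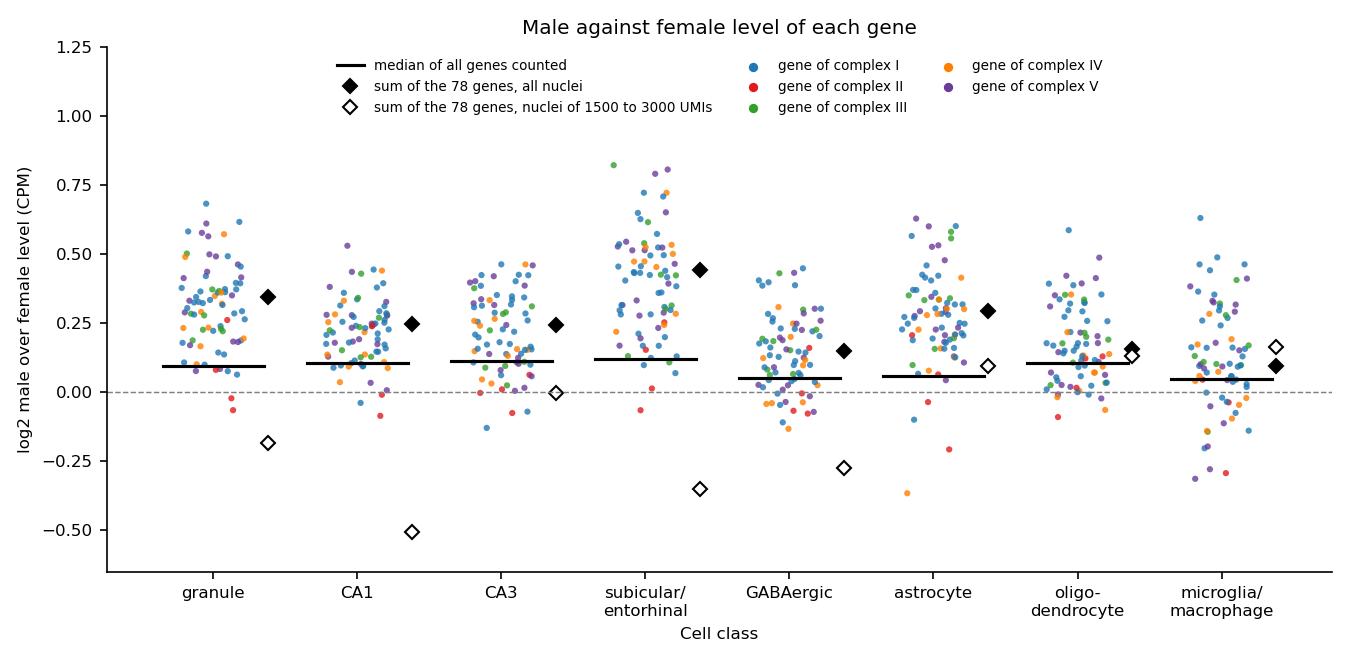
Log2 ratio of male to female level (CPM) of each member by cell class, coloured by complex, with the median of all genes counted as a black line, the sum of the 78 genes in all nuclei as a filled diamond and in nuclei of 1500 to 3000 UMIs as an open diamond. Most points lie over the black line in granule and in subicular or entorhinal neurons, and the open diamonds lie under 0 in granule, CA1, subicular or entorhinal and GABAergic neurons, and at 0 in CA3 neurons.

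The 18 pairs, some of which are named after their values were seen, came mostly from subicular or entorhinal neurons. These held 10, among them Uqcr10 (49.0 against 25.5 CPM), Atp5g1 (77.4 against 42.1 CPM), Atp5k (43.0 against 22.8 CPM) and Ndufa4 (213 against 127 CPM). In this class a cluster held 44.2% of male but 8.88% of female nuclei. The share of all genes past the fold was counted over all classes together, so these counts per class have no background beside them. Granule neurons held 3, among them Ndufb7 (47.4 against 27.7 CPM) and Atp5g1 (122 against 78.04 CPM). Astrocytes held 3, among them Atp5b (329 against 211 CPM) and Atp5k (144 against 93.6 CPM). Oligodendrocytes held Ndufa9 (50.6 against 32.0 CPM), and microglia held Ndufs7 (86.8 against 54.3 CPM), which rests on 115 and 65 UMIs.

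Over the classes, 75 of 77 members had a median log2 ratio above 0, and 45 of the 73 counted in all 8 classes were higher in the male library in each of them. The shares of all genes with these traits were not counted. In single classes 55.5% to 71.0% of all genes tested were higher in the male library. Atp5g1, a gene for the c ring of ATP synthase, had the highest median, 0.51, with values from 0.33 in microglia to 0.81 in subicular or entorhinal neurons. Ndufs7, a core iron-sulphur subunit of complex I, had 0.44. The membrane subunits Atp5k and Atp5md had 0.44 and 0.43. At the low end lay Sdhb with -0.08, Sdha with -0.03, Cox7b2 with 0.03, Cox7c with 0.04 and Atp5e, a central stalk subunit, with 0.06.

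Complex II had the lowest summed ratio of the 5 complexes in each class. Its summed log2 ratio ran from -0.07 in microglia to 0.06 in CA1 neurons, with an interval that held 0 in all 8 classes, and it lay under the median of all genes in each class. Sdha had 79.2 and 80.5 CPM in granule neurons, 64.9 and 65.3 in CA1 neurons, 79.6 and 79.8 in GABAergic neurons and 124 and 123 in oligodendrocytes, so that the libraries differed there by less than the counting error. Within it Sdha and Sdhb had medians under 0 over the classes, whereas Sdhc had 0.141 (higher in the male library in 7 of 8) and Sdhd 0.122 (in 5 of 7). Complex I ran from 0.13 in microglia to 0.41 in subicular or entorhinal neurons, complex III from 0.12 to 0.50, complex IV from 0.06 to 0.49 and complex V from 0.13 to 0.46. The interval of complex II overlapped those of all other complexes in microglia, of complexes I, III and IV in oligodendrocytes and of complex IV in GABAergic neurons. The difference between complex II and the others was not tested.

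**Figure D5:**
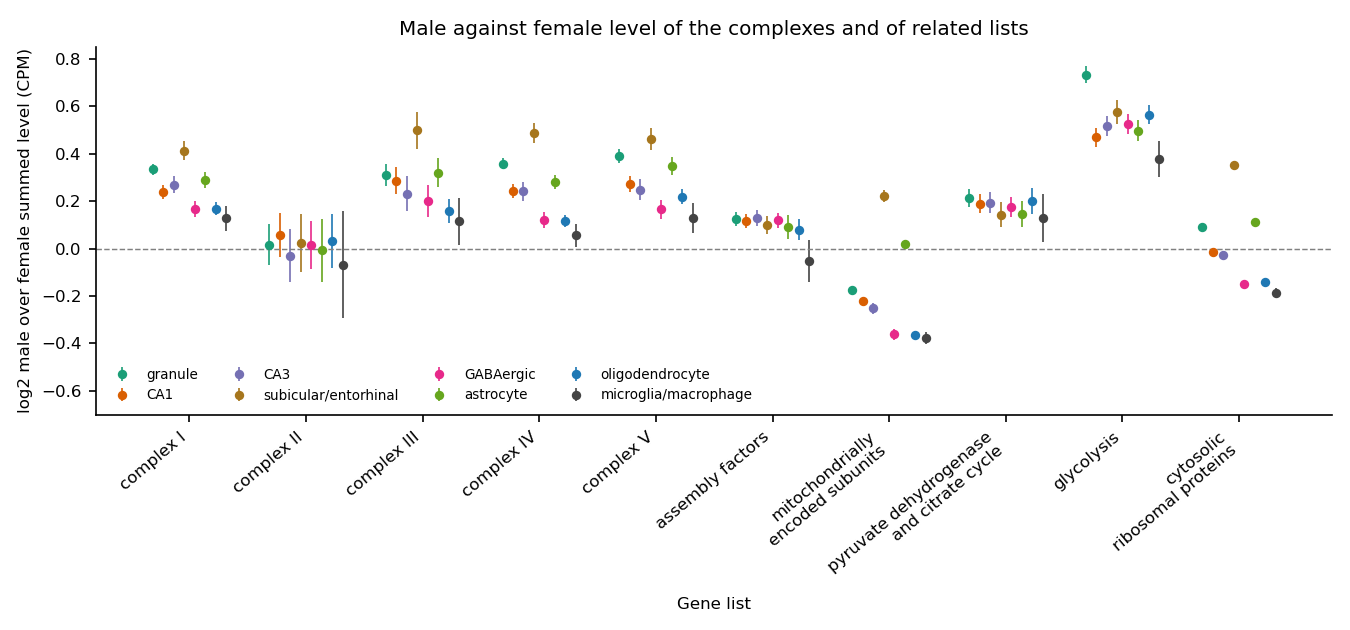
Log2 ratio of male to female summed level (CPM) by cell class for complexes I to V and related gene lists, with 95% intervals of counting error. Complex II lies around 0 in all classes, mitochondrially encoded subunits lie under 0 in 6 of 8 classes and glycolysis lies between 0.38 and 0.73.

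Related lists differed from the members in direction or size. The 13 mitochondrially encoded subunits, which belong to complexes I, III, IV and V, were lower in the male library in 6 classes, by -0.17 in granule neurons, -0.22 in CA1, -0.25 in CA3 and -0.36 in GABAergic neurons, -0.37 in oligodendrocytes and -0.38 in microglia, and had 0.02 in astrocytes and 0.22 in subicular or entorhinal neurons. Glycolysis genes ran from 0.38 in microglia to 0.73 in granule neurons, with 16 of 16 counted genes higher in the male library in granule, CA1, CA3, subicular or entorhinal and GABAergic neurons and in oligodendrocytes. Pyruvate dehydrogenase and citrate cycle genes ran from 0.13 to 0.21. Assembly factors of the complexes ran from 0.08 to 0.13 in 7 classes and had -0.05 in microglia, and cytosolic ribosomal proteins ran from -0.19 in microglia to 0.35 in subicular or entorhinal neurons. Ribosomal proteins were lower in the male library in 5 of the 8 classes, in all of which the members were higher.

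The male to female difference changed with the depth of the nuclei. In granule neurons the log2 ratio was -0.19 at 1500 to 3000 UMIs, 0.19 at 3000 to 6000, 0.49 at 6000 to 12000 and 0.81 at 12000 to 24000. In astrocytes it was -0.10 at 1000 to 1500 UMIs, with an interval that held 0, and 0.09, 0.31 and 0.61 in the next bins up to 12000. In CA1 neurons it went from -0.51 at 1500 to 3000 UMIs, where 20 male and 41 female nuclei were counted, to 0.12, 0.19, 0.27 and 0.49. Over 22 bins from 3000 UMIs the male library was higher in 20 and the female library in 2, GABAergic (-0.08) and CA3 neurons (-0.09) at 3000 to 6000 UMIs. Of 12 bins under 3000 UMIs the male library was higher in 4 and the female library in 5, and 3 had an interval that held 0. The median mitochondrial share also differed in the shallow bins, with 0.733% in male and 1.45% in female granule neurons at 1500 to 3000 UMIs and 0.339% and 0.301% at 12000 to 24000. Its part in these differences was not tested.

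Clusters within a class moved the value too, a split that was chosen after the data were seen. Granule neurons fell into a cluster with 67.9% of male and 90.9% of female nuclei, at 5402 and 5023 CPM (log2 ratio 0.10), and one led by C1ql2, C1ql3 and Prox1 with 32.1% and 9.05%, at 9101 and 8281 CPM (0.14). Both ratios are under the 0.35 of the whole class. In subicular or entorhinal neurons the 3 clusters had 0.15, 0.34 and 0.66, and the cluster with 0.66 held 44.2% of male but 8.88% of female nuclei (53 nuclei). In oligodendrocytes the cluster with most male nuclei had 14577 and 16820 CPM (-0.21) and the cluster with most female nuclei had 12832 and 12803 CPM (0.00), so neither was higher in the male library beyond counting error. In CA3 neurons the larger cluster had 0.13 and the smaller 0.37, and in astrocytes 0.27 and 0.34. In these smaller clusters 31.9% (CA3) and 33.1% (astrocytes) of nuclei were called doublets and removed, beside 1.77% and 1.16% in the larger ones. Both smaller clusters were also deeper, in CA3 neurons at a median of 15785 and 18417 UMIs against 10715 and 10324. CA1 neurons and microglia each formed 1 cluster. In GABAergic neurons the 3 clusters with over 100 nuclei per library had 0.03, 0.27 and 0.13.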

How the data were processed

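The deposited matrices hold raw UMI counts per gene and barcode, for which the authors used, per the file headers, Cell Ranger 7.0.1; per the submitters' processing notes bcl2fastq 2.20.0.422 and build mm10 were used. The release of the gene annotation, the treatment of intronic reads and of strand, and how barcodes were called are not known from the sources used here. A barcode passed with 500 or more genes and no more than 5% of its UMIs mitochondrial (16034 male, 19251 female). Doublets were the 8% of highest Scrublet scores per library, since the automatic threshold called 9.57% and 0%; called nuclei and the clusters with over 40% called were removed, 6 of 31 clusters in all. Clustering used scanpy 1.11.5 (3000 variable genes, 40 components, 15 neighbours, Leiden resolution 1), without the members, the mitochondrially encoded genes and Stra8. The sex-linked genes Xist, Tsix, Ddx3y, Uty, Eif2s3y and Kdm5d were also left out. A cluster was named from its best of 8 markers per type, with at least 3 past 2-fold, so that each class name means "-like".

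UMIs were summed per class and library in Python 3.11.15 with numpy 2.4.6, scipy 1.17.1 and pandas 2.3.3, and drawn with matplotlib 3.10.9. With 1 library per group no test across samples was made. Intervals are exact Poisson intervals of a sum or exact conditional binomial intervals of a ratio, at 95%, and cover counting error only; the floor of a count of 0 is 3 counts. Ratios per gene use 5 CPM added to both levels and at least 100 UMIs in the class. On simulated Poisson counts, the model that the intervals assume, they covered 94.5% to 96.9% of the true values over the classes. Spread between nuclei, clusters or animals was not simulated, so this checks the calculation only.

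Genes were matched to the GENCODE annotation of mm10 for span, and near-identical copies were searched with blastn 2.17.0 (the last 300 bases, at least 90 bases at 95% identity). Promoters came from RefSeq.

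The genes named are the 10 of highest level, the 5 highest and 5 lowest by median male to female ratio, the 2 of largest fold in each class, those just above and just below the UMI minimum, and paralog groups; other genes (such as Ndufs1, Ndufs3, Ndufs8, Ndufa12, Sdhc, Sdhd, Uqcrh, Uqcrc2, Cyc1 and Atp5a1) were named for role or span after their values were seen. A gene that the rule names is not reported here. The members and the gene lists were chosen with earlier results of these data known. Depth bins, clusters within classes, shares of the list, the split by mitochondrial share, span and the comparison with granule neurons were added after the data were seen. Alternatives covered depth, doublets, filters, resolution, the CPM total, the list's make-up, the pseudocount and centring.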

Additional observations from a re-analysis of the deposited data

Results flagged for a closer look

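Barcodes left out for over 5% mitochondrial UMIs, 107 male and 639 female ones, lie outside the nuclei compared and still held the list at 25743 CPM and 25904 CPM, which is above every main class. They held 91.8 and 37.5 UMIs of the list per barcode. What sets these barcodes apart was not tested.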

How the results depend on the processing

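No paired analysis was possible because each group is 1 library. The ratio of microglia to CA3 neurons (4.63 male, 5.12 female) stayed above 1 in every setting: thinned to 1000 UMIs it was 3.94 and 3.95, in nuclei of 1500 to 3000 UMIs 1.30 and 1.15, with called doublets kept 4.35 and 4.97, with the stricter nucleus filter (1000 genes, 1% mitochondrial UMIs) 3.60 and 3.22, with mitochondrial and ribosomal protein UMIs out of the total 4.83 and 5.39, without the 3 members of highest level 4.34 and 4.77, and at resolution 0.5 5.21 in the female library. Because thinning keeps the expected share of each nucleus, its values are no check of depth. The log2 male to female ratio of the list moved with depth and with the nucleus filter. Thinned to 1000 UMIs it was 0.10 in granule, 0.15 in CA1, 0.0748 in CA3, 0.11 in subicular or entorhinal neurons, 0.12 in oligodendrocytes and 0.20 in astrocytes, and reversed to -0.21 in GABAergic neurons. In nuclei of 1500 to 3000 UMIs it reversed to -0.18 in granule, -0.51 in CA1, -0.27 in GABAergic, -0.35 in subicular or entorhinal and -0.00402 in CA3 neurons, and was 0.13 in oligodendrocytes, 0.0947 in astrocytes and 0.17 in microglia. The cause was not tested. With the stricter filter, which left 90 male and 17 female microglia, it was 0.45 in granule, 0.28 in CA3, 0.29 in GABAergic and 0.50 in subicular or entorhinal neurons, 0.59 in oligodendrocytes, 0.51 in astrocytes and 0.44 in microglia. At resolution 0.5 it was 0.41 in granule, 0.24 in GABAergic, 0.27 in CA3 and 0.56 in subicular or entorhinal neurons, 0.12 in oligodendrocytes and 0.27 in astrocytes. With doublets kept it was 0.19 in GABAergic and 0.28 in CA3 neurons. Without the 3 members of highest level it was 0.32 in granule, 0.23 in CA1 and 0.41 in subicular or entorhinal neurons. The split by cluster, added after the data were seen, gave 0.10 and 0.14 in granule neurons, -0.21 and 0.00333 in oligodendrocytes and 0.15, 0.34 and 0.66 in subicular or entorhinal neurons. Of 604 pairs of member and class, 18 were at least 1.5-fold higher in the male library, beside 4.74% of all gene and class pairs. This count became 29 with a pseudocount of 1 CPM, beside 7.94% of all pairs, and 7 when centred on the median gene, beside 2.93%. When thinned, 10 of 447 pairs were higher in the male library, beside 6.43% of all pairs. There 2 of 447 were higher in the female library in place of 0, beside 2.93%. Of rare paralogs, Cox7b2 had 0 UMIs in male microglia, which allows up to 2.26 CPM.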

Other observations

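Of the clusters that kept no cell-class name, the one with 405 male and 3248 female nuclei, led by mitochondrial and hemoglobin genes, had the 78 genes at 18979 CPM and 15217 CPM, with median mitochondrial shares of 2.23% and 2.66%. The one led by Ywhah, Rab3a and Calm3, with 327 and 393 nuclei, had 23890 and 26979 CPM. These nuclei are part of no comparison above.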
